A study of Homo sapiens with 8 samples.

Results

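Dividing cells build purines, pyrimidines and deoxynucleotides from amino acids, bicarbonate and carbon units carried on folate, and 41 genes of these pathways were followed in melanoma cells with and without serum. They were listed by symbol, with earlier results of these data known though no measured value stands in the rule, and are 41 of the 58051 genes counted in the series. By pathway, 12 belong to purine synthesis, 5 to pyrimidine synthesis, 10 to deoxynucleotide supply and 10 to serine and folate metabolism, and 4 genes of methionine and polyamine metabolism were counted apart. All 41 passed edgeR's filter on low counts, so each was tested. RNA came from A375, a human melanoma cell line, in the form of 4 lines called WT1, WT2, WT3 and WT4, each grown up from 1 cloned A375 cell. Every line had been grown in DMEM with 10% fetal bovine serum (FBS), was rinsed, and was then kept for 12 h in DMEM that either held 10% FBS (serum) or held none (serum-free). One library was made per line and condition, so n = 4 for each condition, and the labels name no drug or gene edit. Each line stands for 1 clone, so p-values measure the spread between clones. Where a fit compares each line with itself, they measure how far the changes of the clones differ. Transcripts were read by sequencing of total RNA freed of ribosomal RNA, in a search for secreted factors behind the junctions that melanoma cells form when serum is withdrawn.

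Levels are given as CPM, a gene's reads as a share of the library after edgeR's TMM scaling, and differences as log2 fold changes of serum-free over serum, so a negative value is a lower level without serum. Between 29759279 and 67101005 reads were counted on genes in the serum libraries, and between 37847737 and 73341551 in the serum-free ones. Reads placed at several positions, which were not counted, took 7.09% to 22.7% of all recorded reads with serum and 5.73% to 7.73% without, and their part in the differences was not tested. The labelled cell type was checked against 12 melanocyte markers. *CSPG4* (mean 394 CPM with serum), *ERBB3* (331) and *MITF* (40.2) were present, *MLANA* (0.953) and *PMEL* (0.714) were near the floor, *TYR* had 0 reads with serum and *SOX10* was listed at 0 in all 8 libraries, although 5.39% of its exon bases overlap *POLR2F* on the other strand. The 12 markers summed to 687 to 988 CPM with serum and to 875 to 1284 CPM without. Markers of other cell types summed to 19.3 to 27.3 and to 17.2 to 28.2 CPM, most of it *KRT14*, and *ALB* was at 0 in every library.

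De novo purine synthesis builds the ring step by step on a ribose phosphate made by the PRPS enzymes and ends at IMP, from which AMP and GMP are made. Pyrimidine synthesis makes the ring first, joins it to ribose phosphate to give UMP, and CTP synthase then converts UTP to CTP. Ribonucleotide reductase turns ribonucleotides into deoxynucleotides, and thymidylate synthase makes dTMP with a carbon unit from folate. Serine, made from a glycolytic intermediate or taken up, supplies most of these carbon units in mitochondria and cytosol. These pathways are known for high activity in proliferating and tumor cells, and several of their enzymes are drug targets.

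Without serum, 29 of the 41 genes fell and 1 rose (quasi-likelihood test of edgeR, adjusted p under 0.05), against 14.0% lower and 11.1% higher of all 17671 genes tested. The 1 that rose was *CTPS2*. The median log2 fold change of the 41 was -0.36, beside 0.03 for all genes tested. With the line as a block in the fit, which compares each line with itself, 32 fell and 3 rose, against 22.4% and 23.2% of all genes. CPM values of the conditions did not overlap for 27 of the 41, with 26 lower without serum and 1 higher, where 15.0% of all genes were lower and 12.6% higher in this way. A call with a fall of more than 0.5 on the log2 scale was made for 13 of the 41, against 4.39% of all genes. The level was lower without serum in all 4 lines for 32 of the 41 and higher in all 4 lines for 3, against 26.6% and 28.8% of all genes. A lower CPM is a lower share of the library, and fewer cells in a phase that makes these transcripts cannot be told apart from less RNA per cell.

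**Figure D1:**
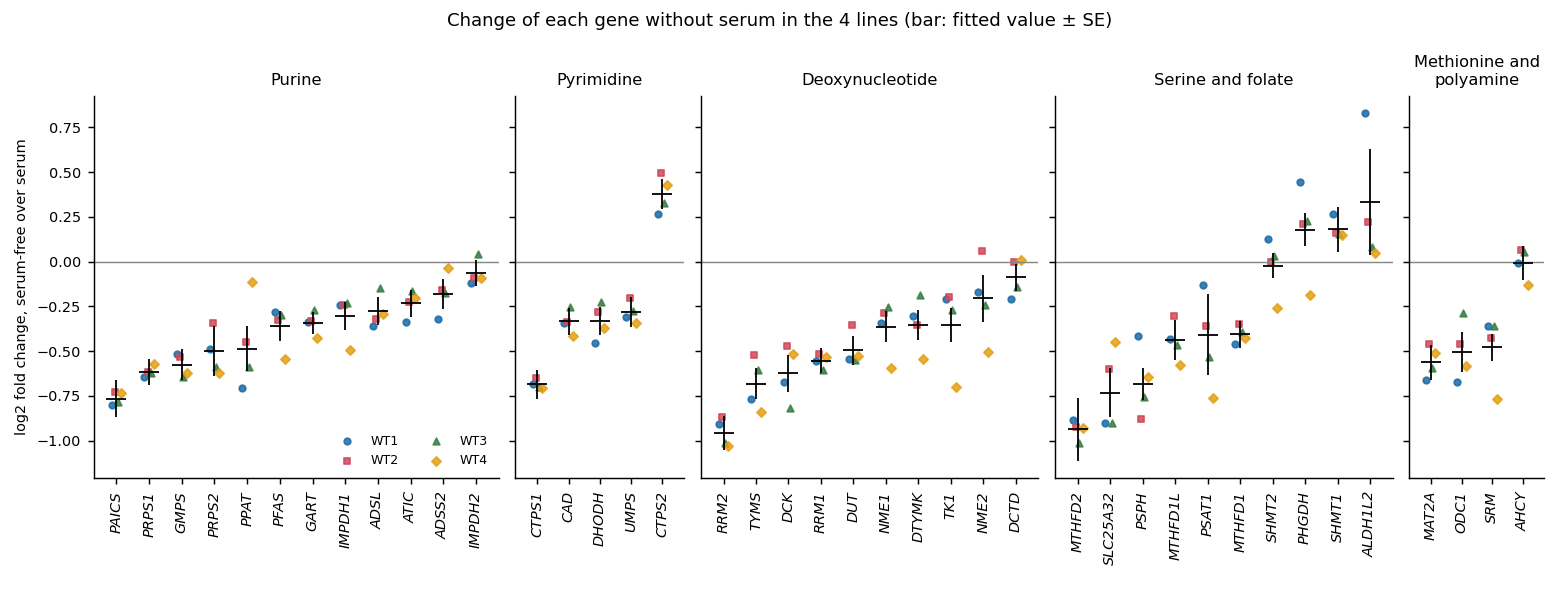
Log2 fold change of serum-free over serum for each of the 41 genes, by pathway. Colored points are the 4 lines, black bars the fitted value ± SE, and most points lie below 0, with *CTPS2* above it in all 4 lines.

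In the purine group 9 of 12 genes fell, 0 rose, and the median log2 fold change was -0.35. The largest fall was that of *PAICS* (ENSG00000128050, chromosome 4 of GRCh38, 56410507 to 56464578), which encodes the enzyme of the carboxylation step and the step after it. With serum *PAICS* was at 696, 600, 674 and 528 CPM in WT1 to WT4, and without serum at 399, 362, 391 and 318. Every serum-free value was below every serum value. Its level without serum was 0.589 times that with serum (log2 fold change -0.76 ± 0.10 SE, edgeR's adjusted p = 0.00175). *PPAT*, which catalyses the first committed step, had 84.1, 72.9, 83.8 and 54.7 CPM with serum and 51.5, 53.3, 55.6 and 50.6 without. The WT4 serum library lay among the serum-free values, so the ranges overlapped, and the change of WT4 (-0.11) was the smallest of the 4. The fitted change of *PPAT* was -0.49 ± 0.12 (edgeR's adjusted p = 0.0193).

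*PRPS1* and *PRPS2* encode isoforms of the synthetase that makes the activated ribose phosphate used by purine and pyrimidine synthesis. *PRPS1* averaged 79.1 ± 5.72 CPM with serum and 51.6 ± 2.78 without (SD, n = 4). It fell by 0.62 ± 0.07, and its change varied only from -0.64 to -0.57 between lines (edgeR's adjusted p = 0.00112). *PRPS2* went from 144 ± 17.4 to 102 ± 19.2 CPM and fell by 0.50 on the log2 scale (edgeR's adjusted p = 0.0296). *GMPS*, which makes GMP from XMP, was at 250, 227, 226 and 213 CPM with serum and at 175, 157, 145 and 138 without. The conditions were apart in every line, and *GMPS* fell by 0.57 ± 0.09 (edgeR's adjusted p = 0.00229).

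The remaining purine genes moved less. *GART*, an enzyme with several activities along the ring-building path, fell from 216 ± 5.57 to 171 ± 9.63 CPM (-0.34, edgeR's adjusted p = 0.00464) and varied least between lines with serum, with the highest line 1.06 times the lowest. *PFAS*, the step between those of *GART*, fell by 0.36 (edgeR's adjusted p = 0.0122), and *ADSL*, which acts on both the IMP and the AMP branch, by 0.28 (0.0263). *IMPDH1* and *IMPDH2* encode the isoforms of the enzyme that commits IMP to GMP. *IMPDH1* fell from 123 ± 7.77 to 99.8 ± 8.17 CPM (edgeR's adjusted p = 0.0193), while *IMPDH2*, the more abundant, was at 382 ± 30.5 and 365 ± 17.9 CPM and did not pass (-0.07 ± 0.07, edgeR's adjusted p = 0.545). *ATIC*, which closes the ring to give IMP, was lower in all 4 lines (172 ± 12.6 to 146 ± 10.5 CPM), with an adjusted p of 0.0503 from edgeR without the block and 0.00262 with it, and it passed with DESeq2 (0.0238) and limma voom (0.0451). *ADSS2*, the first step from IMP to AMP, did not pass without the block (-0.18, edgeR's adjusted p = 0.148) and did with it (0.0246), a call kept in 1 of the 4 blocked fits without a line.

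In the pyrimidine group all 5 genes passed, 4 lower and 1 higher, with a median log2 fold change of -0.33 (-0.27 under upper-quartile scaling and -0.44 with a GC correction). *CAD*, whose protein carries the first enzyme activities of the pathway, was at 384, 356, 378 and 345 CPM with serum and at 302, 282, 318 and 259 without. All serum-free values lay below the serum values, and *CAD* fell by 0.33 ± 0.08 (edgeR's adjusted p = 0.0118). *DHODH*, the mitochondrial oxidation step, fell from 27.5 ± 1.21 to 21.9 ± 1.47 CPM (-0.33, edgeR's adjusted p = 0.0136). *UMPS*, which completes UMP, fell from 99.2 ± 7.74 to 81.6 ± 7.07 CPM (-0.28, edgeR's adjusted p = 0.0344).

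The CTP synthase genes moved in opposite directions. *CTPS1* (chromosome 1, 40979696 to 41012565) had 253, 247, 254 and 217 CPM with serum in WT1 to WT4 and 158, 157, 157 and 133 without. *CTPS2* (chromosome X, 16587999 to 16712910), at a far lower count, had 19.2, 17.8, 21.0 and 19.2 CPM with serum and 23.1, 25.1, 26.3 and 25.9 without. Neither gene's conditions overlapped. *CTPS1* fell by 0.68 ± 0.08 (edgeR's adjusted p = 0.00112) and *CTPS2* rose by 0.38 ± 0.08 (edgeR's adjusted p = 0.0102). The log2 ratio of *CTPS1* to *CTPS2* counts, which no library scaling can alter, was at 3.72, 3.79, 3.60 and 3.49 with serum and at 2.77, 2.65, 2.57 and 2.36 without. It was lower in all 4 lines, by 1.06 on average, with an SD of 0.10 between the differences of the lines.

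**Figure D2:**
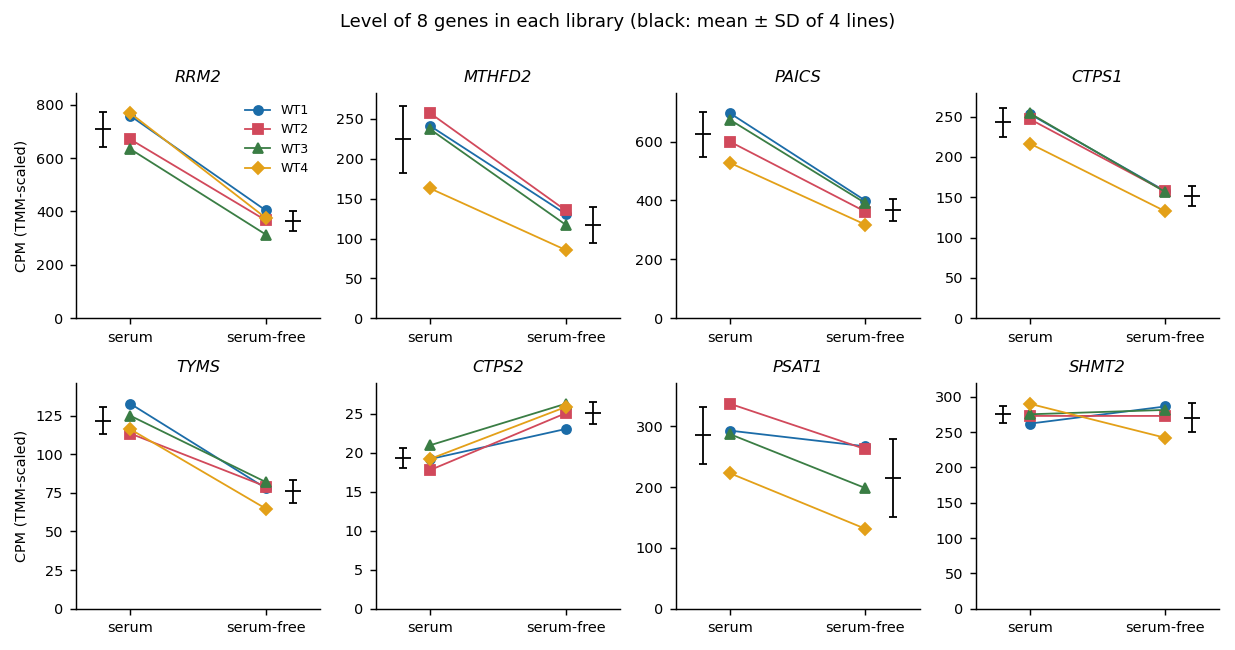
CPM of 8 genes in each library, with the libraries of a line joined and the mean ± SD of 4 lines in black. *RRM2*, *MTHFD2*, *PAICS*, *CTPS1* and *TYMS* are lower without serum in every line and *CTPS2* is higher, while lines of *PSAT1* differ widely and *SHMT2* stays near 270 CPM.

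In the deoxynucleotide group 8 of 10 genes fell, 0 rose, and the median log2 fold change was -0.43. *RRM2* (ENSG00000171848, chromosome 2, 10122568 to 10211010), the small subunit of ribonucleotide reductase, which is known to accumulate in S phase, had the largest fall of the 41 genes. It was at 758, 670, 633 and 768 CPM with serum and at 404, 367, 313 and 376 without, so every line lost close to the same share. The level without serum was 0.516 times that with serum (log2 fold change -0.96 ± 0.09, edgeR's adjusted p = 0.000828). *RRM1*, the large subunit, was at 216, 193, 211 and 190 CPM with serum and at 148, 135, 139 and 132 without, and fell by 0.55 ± 0.07 (edgeR's adjusted p = 0.00127). *TYMS*, thymidylate synthase, went from 133, 113, 125 and 116 CPM to 78.0, 79.1, 82.0 and 64.8, a fall of 0.68 ± 0.09 (edgeR's adjusted p = 0.00152). Of the exon bases of *TYMS*, 47.9% overlap *ENOSF1* on the other strand, and the strand setting of the counts is not stated, so the count of *TYMS* is uncertain. *ENOSF1* itself was at 21.6 ± 3.03 CPM with serum and 23.6 ± 1.44 without (log2 fold change 0.13, edgeR's adjusted p = 0.432).

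*DUT*, which removes dUTP and yields the substrate of thymidylate synthase, fell from 119 ± 10.9 to 84.4 ± 5.84 CPM (-0.50, edgeR's adjusted p = 0.00337), with 14.5% of its exon bases shared with *DUT-AS1* on the other strand. *DTYMK*, the kinase that phosphorylates dTMP, fell from 71.7 ± 8.10 to 56.1 ± 2.12 CPM (-0.35, edgeR's adjusted p = 0.0139). Of the salvage kinases, *DCK* (deoxycytidine) fell from 41.5 ± 4.70 to 26.9 ± 2.61 CPM (-0.62, edgeR's adjusted p = 0.00337) and *TK1* (thymidine, another gene known for its S-phase level) from 149 ± 20.7 to 117 ± 4.56 CPM (-0.35, edgeR's adjusted p = 0.0225). *TK1* was at 134, 138, 145 and 179 CPM with serum but between 111 and 120 without, so its change was -0.70 in WT4 and between -0.27 and -0.20 in the rest. *DCTD*, which deaminates dCMP to dUMP, was at 108 ± 8.95 and 101 ± 5.12 CPM and did not pass (-0.09 ± 0.08, edgeR's adjusted p = 0.423).

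*NME1* and *NME2* encode nucleoside diphosphate kinases, which make triphosphates. *NME1* fell from 97.6 ± 4.08 to 75.9 ± 9.05 CPM (-0.36, edgeR's adjusted p = 0.0154), and *NME2*, at 7.55 ± 0.329 and 6.55 ± 0.87 CPM, did not pass (-0.21 ± 0.13, edgeR's adjusted p = 0.280). A readthrough gene joins these neighbors and covers 18.7% of the exon bases of *NME1* and 24.2% of those of *NME2*. It was listed at 0 in all 8 libraries, and the counts keep reads that fit several genes in a row of their own, so the levels of both are uncertain.

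In the serine and folate group 5 of 10 genes fell, 0 rose, and the median log2 fold change was -0.41, with values spread from -0.94 to 0.33. The genes did not move as a block. *MTHFD2* (chromosome 2, 74198615 to 74217565), the mitochondrial dehydrogenase and cyclohydrolase, was at 241, 257, 237 and 163 CPM with serum and at 131, 135, 117 and 85.7 without. WT4 was lowest in both conditions, and all lines changed alike, from -1.01 to -0.88. *MTHFD2* fell by 0.94 ± 0.18 (edgeR's adjusted p = 0.00651), to 0.522 times its level, with 14.1% of its exon bases shared with *SLC4A5* on the other strand. *SLC25A32*, the carrier linked to folate entry into mitochondria, went from 128, 107, 122 and 79.4 CPM to 68.5, 70.6, 65.1 and 58.1 and fell by 0.73 ± 0.14 (edgeR's adjusted p = 0.00568). *MTHFD1L*, which releases formate in mitochondria, fell from 117 ± 9.73 to 86.2 ± 13.1 CPM (-0.44, edgeR's adjusted p = 0.0195). *MTHFD1*, its cytosolic partner with several activities, fell from 181 ± 12.7 to 137 ± 9.33 CPM (-0.41, edgeR's adjusted p = 0.00498).

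The serine synthesis enzymes act in the order PHGDH, PSAT1, PSPH, and their transcripts differed. *PSPH*, the last step, was at 31.8, 40.9, 38.8 and 35.0 CPM with serum and at 23.8, 22.2, 22.9 and 22.4 without, a fall of 0.68 ± 0.09 (edgeR's adjusted p = 0.00159). *PSAT1* was at 293, 337, 287 and 223 CPM with serum and at 267, 262, 198 and 131 without. Each line was lower without serum, by 0.13 in WT1 and by 0.76 in WT4 on the log2 scale, and the ranges overlapped. *PSAT1* did not pass without the block and did with it (-0.41 ± 0.23, edgeR's adjusted p = 0.226, and 0.000468 with the block). *PHGDH*, the first step, was at 164, 185, 179 and 196 CPM with serum and at 223, 214, 210 and 172 without. It was higher in 3 lines and lower in WT4, and did not pass in either fit (0.18 ± 0.09, edgeR's adjusted p = 0.179, and 0.0888 with the block). With both WT4 libraries left out *PHGDH* passed as higher (0.29, edgeR's adjusted p = 0.00647).

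*SHMT1* and *SHMT2* encode the cytosolic and the mitochondrial enzyme that moves a carbon from serine to folate. *SHMT2* was at 262, 273, 275 and 290 CPM with serum and at 286, 273, 281 and 242 without, and its log2 fold change of -0.02 ± 0.07 turned to 0.04 under upper-quartile scaling (edgeR's adjusted p = 0.840 with TMM). *SHMT1* was at 67.4 ± 10.5 and 76.4 ± 10.4 CPM and had a higher value without serum in each of the 4 lines, by 0.15 to 0.26. *ALDH1L2*, a mitochondrial enzyme that oxidizes formyl folate, was also higher in all 4 lines, at 24.9, 32.0, 29.2 and 16.9 CPM with serum and 44.3, 37.4, 30.8 and 17.5 without, but by 0.83 in WT1 and 0.05 in WT4. Neither passed without the block (edgeR's adjusted p = 0.327 and 0.453). With it both passed as higher (edgeR's adjusted p = 0.0156 and 0.0406), and with the block and a GC correction together neither did (0.105 and 0.0715). When a line was left out of the blocked fit, *SHMT1* passed in 1 of 4 fits and *ALDH1L2* in 0.

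Of the methionine and polyamine genes 3 of 4 fell. *MAT2A*, which makes the methyl donor S-adenosylmethionine, went from 569, 482, 553 and 434 CPM to 360, 351, 367 and 305 and fell by 0.56 ± 0.10 (edgeR's adjusted p = 0.00410), with 12.5% of its exon bases shared with *GGCX*. *ODC1*, the first enzyme of polyamine synthesis, fell from 59.1 ± 8.12 to 41.7 ± 4.76 CPM (-0.50, edgeR's adjusted p = 0.0109). *SRM*, spermidine synthase, was at 264, 276, 280 and 313 CPM with serum and at 205, 205, 219 and 184 without, and fell by 0.48 ± 0.08 (edgeR's adjusted p = 0.00295). *AHCY*, which breaks down S-adenosylhomocysteine, was at 224 ± 25.2 and 223 ± 19.8 CPM (log2 fold change -0.01 ± 0.10, edgeR's adjusted p = 0.966), and its sign changed under upper-quartile scaling (0.06).

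In 7 pairs of isoforms, subunits or compartment partners, the log2 ratio of counts was compared between conditions with a two-sided exact permutation test, in which 4 against 4 libraries cannot go below p = 0.0286. Beside the pair of CTP synthases (exact p = 0.0286), the ratio of *RRM2* to *RRM1* was apart between conditions. It was at 1.81, 1.80, 1.58 and 2.01 with serum and at 1.45, 1.45, 1.18 and 1.51 without, lower by 0.40 (exact p = 0.0286). Over the 7 pairs both have an adjusted p of 0.100, and no pair passed. This test does not use the pairing by line, and a sign-flip test over the 4 lines cannot go below 0.125. The differences of the lines had an SD of 0.07 for *RRM2* over *RRM1*, and of 0.09 for *MTHFD2* over *MTHFD1*. *MTHFD2* over *MTHFD1* was lower in all 4 lines by 0.53, with overlapping ranges (exact p = 0.0857). *NME1* over *NME2* was lower by 0.15 (exact p = 0.0857) and *SHMT2* over *SHMT1* by 0.21 (exact p = 0.257), both in 4 of 4 lines. *IMPDH2* over *IMPDH1* was higher by 0.24 in 4 of 4 lines (exact p = 0.143), and *PRPS1* over *PRPS2* was lower by 0.10 in 3 of 4 (exact p = 0.486).

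**Figure D3:**
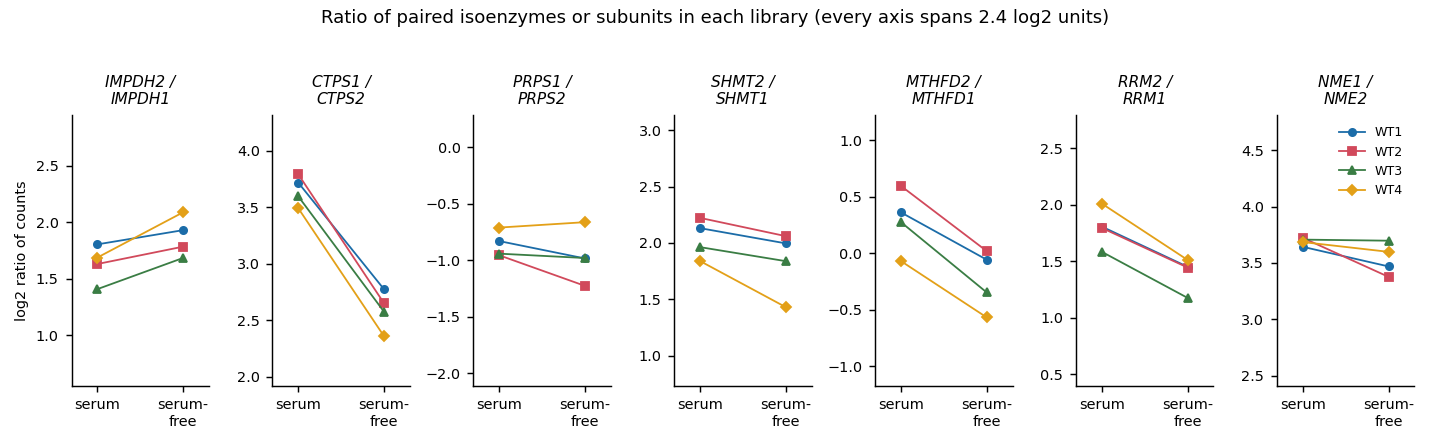
Log2 ratio of counts for 7 gene pairs in each library, with the libraries of a line joined and every axis spanning the same range. The ratio of *CTPS1* to *CTPS2* drops by about 1 in each line, and that of *RRM2* to *RRM1* by about 0.40.

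Levels of different genes were compared as RPKM, that is CPM per kilobase of merged exon length. With serum they ran from 2.71 ± 0.693 RPKM for *ALDH1L2* to 150 ± 11.2 for *SRM*, and 40 of the 41 genes were above 2.75, the median of all genes tested with a known length. Next below *SRM* came *PSAT1* (129 ± 21.3 RPKM), *MAT2A* (114 ± 14.1), *PAICS* (83.1 ± 10.2), *TK1* (80.8 ± 11.2) and *RRM2* (77.3 ± 7.22). *SRM* and *PSAT1* overlapped in their spread, as did *PSAT1* and *MAT2A*, and *PAICS*, *TK1* and *RRM2*. Without serum *SRM* (107 ± 7.66) and *PSAT1* (97.4 ± 28.9) still came first, followed by *MAT2A* (77.1 ± 6.16) and *IMPDH2* (71.2 ± 3.49), while *RRM2* stood at 39.9 ± 4.12. At the low end were *DHODH* (3.98 ± 0.175 RPKM with serum), *CTPS2* (3.49 ± 0.235) and *NME2* (3.03 ± 0.132). The order depends on the length used: with the longest transcript's length *RRM2* was at 193 RPKM with serum, after only *SRM* at 225.

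**Figure D4:**
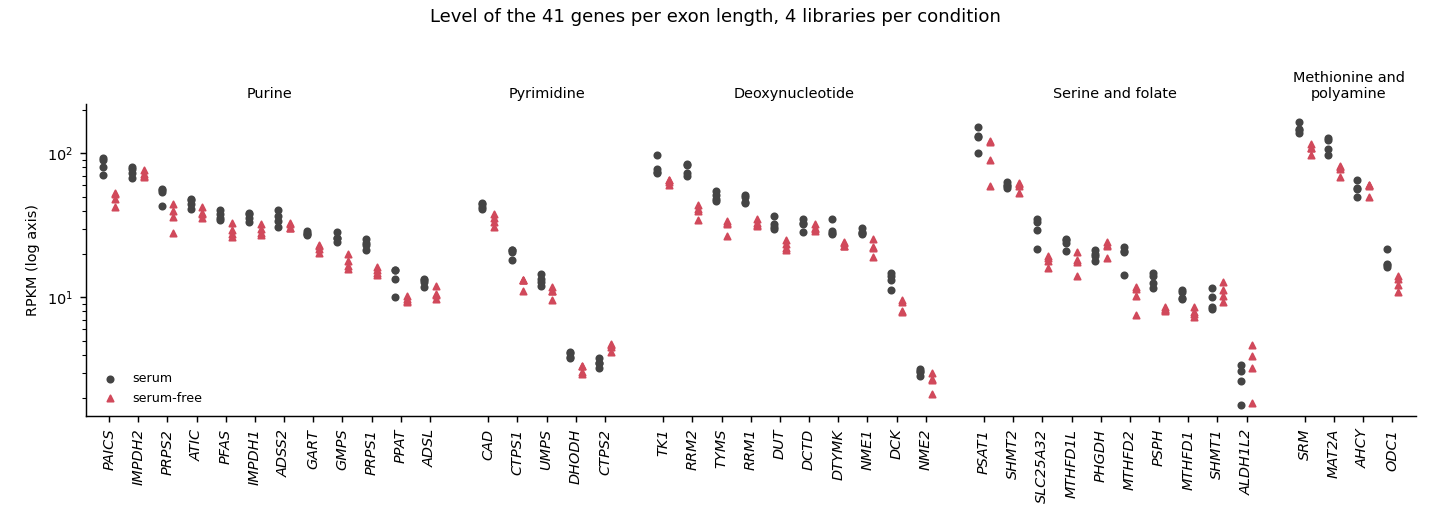
RPKM of the 41 genes on a log axis, with 4 libraries per condition and genes ordered by their level with serum within each pathway. *SRM* and *PSAT1* are highest, and *ALDH1L2*, *NME2*, *CTPS2* and *DHODH* stand apart at the low end.

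With serum, the range between lines had a median of 0.27 log2 units over the 41 genes and 0.49 over all genes tested, which include many genes of lower count, and the difference was not tested. The change without serum exceeded the range between lines, in both conditions, for 23 of the 41, against 20.1% of all genes tested. *ALDH1L2* varied most with serum, 1.89 times between WT2 and WT4, followed by *SLC25A32* (1.61 times), *MTHFD2* (1.58), *PPAT* (1.54) and *PSAT1* (1.51), and in each of these WT4 was the lowest line. Without serum WT4 was the lowest line for 34 of the 41 genes, and with serum for 22, where it was the lowest for 30.8% and 37.5% of all genes tested. Medians of change over the 41 genes stood at -0.36, -0.34, -0.29 and -0.51 for WT1 to WT4, and that of all genes was between 0.02 and 0.04 in each line. The WT4 serum library had the fewest reads, and the deposited counts of WT4 bear another name than the label, so its identity rests on the label. Besides, all serum libraries carry 1 repeat number in the names of the deposited counts and all serum-free libraries another, and what the number stands for is not stated, so it cannot be told apart from serum.

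The number of genes called depended on which lines were in the fit without the block. It went from 29 lower to 17 without WT1 and to 18 without WT2, was 23 without WT3, and reached 31 without WT4. The share of all tested genes called lower moved the same way, from 14.0% to 5.35%, 6.73%, 6.47% and 17.4%. Of the 30 calls, 15 stood in each of the 12 leave-out fits (8 without a library, 4 without a line): *GART*, *PAICS*, *GMPS*, *PRPS1*, *CTPS1*, *TYMS*, *DUT*, *RRM1*, *RRM2*, *DCK*, *PSPH*, *MTHFD1*, *SLC25A32*, *MAT2A* and *SRM*. Another 8 were lost only when a whole line was left out. These were *PFAS*, *CAD*, *DHODH*, *DTYMK* and *NME1* without WT1 or WT2 (edgeR's adjusted p up to 0.108), *CTPS2* (0.0794) and *ODC1* (0.0530) without WT2, and *MTHFD2* (0.0521) without WT3. The other 7, *PPAT*, *ADSL*, *IMPDH1*, *PRPS2*, *UMPS*, *TK1* and *MTHFD1L*, were also lost without some single library, none of them the WT4 serum library, with an adjusted p of up to 0.152. With the line as a block, all 30 passed in each of the 4 fits that left out a line. Those fits called 6185 to 8938 of all genes tested, against 4434 in the fit without the block on all libraries. How many of these 4434 calls stood in the 12 or the 4 leave-out fits is not given here. Under upper-quartile scaling 27 of the 41 genes were lower and 1 higher, and among all genes the share of calls that were higher moved from 44.1% to 57.6%.

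Transcripts richer in G and C tended to be higher without serum (Spearman's rho of 0.36 across genes, which are not independent replicates). The 41 genes had a median GC content of 47.8%, close to the 47.9% of all genes tested. After correction for GC content with the line as a block, 35 were lower and 1, *CTPS2*, higher, against 24.5% and 21.7% of all genes. *IMPDH2*, *DCTD*, *NME2*, *SHMT2* and *AHCY* were then called lower (edgeR's adjusted p between 0.00370 and 0.0479), whereas *ADSS2* (0.839) and *PSAT1* (0.0892) were not called.

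Promoter sequence was looked at because most of these genes moved together. RefSeq's promoter table (GRCh38.p14) holds 35 of the 41 genes and 15843 protein-coding genes in all, with no entry for *ADSL*, *IMPDH2*, *PSPH*, *SHMT2*, *ALDH1L2* and *SLC25A32*. The bases after the start matched a transcript of the gene in the GENCODE set for 29 of the 35, and not for *PAICS*, *ADSS2*, *DHODH*, *RRM1*, *DCTD* and *MTHFD1L*, of which the last 4 hold matches counted here. Windows of 300 bases around the start were searched on both strands for CCAAT, for the E-box CACGTG, for the E2F words TTTCCCGC, TTTGGCGC, TTTCGCGC and TTTGCCGC, and for the ATF4 word TGATGNAA. CCAAT was in 16 of the 35 windows (45.7%, against 36.4% of all), among them all 6 of the serine and folate genes present and *RRM2*, which has 3 matches. The E-box was in 8 (22.9%, against 8.88%), an E2F word in 4 (11.4%, against 4.44%) and the ATF4 word in 2 (5.71%, against 2.53%). In some of the other lists counted here the shares were higher. The E-box was in 40.0% of ribosome biogenesis and 28.6% of mitotic promoters, an E2F word in 72.2% of replication licensing promoters, CCAAT in 72.2% of those and in 85.7% of mitotic ones, and the ATF4 word in 25.0% of promoters of ATF4 targets. Below are the 250 bases before the start of 4 serine and folate genes that share CCAAT, with fitted changes from -0.94 to 0.18, of *SRM*, with both CCAAT and E-box, and of *DCK*, with an E-box, each in a window that touches no other annotated gene. Capitals mark CCAAT (or ATTGG, its other strand) and CACGTG. The windows are *MTHFD2* chr2:74198365-74198614 (plus strand), *MTHFD1* chr14:64388103-64388352 (plus), *PSAT1* chr9:78296875-78297124 (plus), *SHMT1* chr17:18363551-18363800 (minus), *SRM* chr1:11060019-11060268 (minus) and *DCK* chr4:70993399-70993648 (plus).
*MTHFD2*: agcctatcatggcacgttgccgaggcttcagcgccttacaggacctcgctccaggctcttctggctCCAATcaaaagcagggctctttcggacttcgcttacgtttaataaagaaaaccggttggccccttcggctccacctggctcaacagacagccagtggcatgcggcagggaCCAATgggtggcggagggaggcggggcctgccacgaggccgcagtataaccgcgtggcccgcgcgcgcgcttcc
*MTHFD1*: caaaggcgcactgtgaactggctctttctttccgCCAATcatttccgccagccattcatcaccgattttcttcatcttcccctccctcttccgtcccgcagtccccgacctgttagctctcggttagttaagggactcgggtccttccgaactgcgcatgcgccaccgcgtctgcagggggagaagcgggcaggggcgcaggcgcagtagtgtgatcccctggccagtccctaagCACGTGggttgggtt
*PSAT1*: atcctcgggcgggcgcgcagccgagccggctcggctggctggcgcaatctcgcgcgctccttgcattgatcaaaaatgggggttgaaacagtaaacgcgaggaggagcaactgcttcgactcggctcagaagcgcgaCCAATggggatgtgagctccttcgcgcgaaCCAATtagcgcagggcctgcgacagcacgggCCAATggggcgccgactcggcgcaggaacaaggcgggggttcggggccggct
*SHMT1*: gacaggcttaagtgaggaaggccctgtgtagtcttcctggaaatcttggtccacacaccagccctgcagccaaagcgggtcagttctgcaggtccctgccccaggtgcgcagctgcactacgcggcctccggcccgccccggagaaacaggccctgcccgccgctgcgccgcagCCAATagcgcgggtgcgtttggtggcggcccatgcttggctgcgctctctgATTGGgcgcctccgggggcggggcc
*SRM*: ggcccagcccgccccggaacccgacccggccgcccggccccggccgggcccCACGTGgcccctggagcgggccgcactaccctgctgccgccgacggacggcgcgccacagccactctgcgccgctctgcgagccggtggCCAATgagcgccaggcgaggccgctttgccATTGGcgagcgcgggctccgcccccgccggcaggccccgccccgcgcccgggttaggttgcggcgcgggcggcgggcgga
*DCK*: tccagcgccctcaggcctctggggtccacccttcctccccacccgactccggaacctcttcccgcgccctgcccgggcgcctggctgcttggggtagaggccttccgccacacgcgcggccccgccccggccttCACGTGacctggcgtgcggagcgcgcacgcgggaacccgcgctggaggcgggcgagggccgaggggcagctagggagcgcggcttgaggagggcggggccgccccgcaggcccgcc
*MTHFD2*, which fell by 0.94, and *SHMT1*, which was at 0.18 and passed only with the block, both carry CCAAT at a like distance, its first base 74 and 76 bases before the start, and *SHMT1* has another match 25 bases before it. The match is a description of letters, and binding was not measured.

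Transcription factors often linked to these pathways were read in the same libraries. *ATF4*, a regulator of amino acid and serine synthesis genes, fell from 289, 309, 284 and 301 CPM to 199, 197, 205 and 202 (-0.56 ± 0.06, edgeR's adjusted p = 0.000846). *E2F1*, a regulator of S-phase genes, fell from 90.3 ± 21.1 to 57.8 ± 11.3 CPM (-0.64 ± 0.19, edgeR's adjusted p = 0.0385), a call kept in 2 of the 12 leave-out fits. With the block *E2F1* passed as lower (edgeR's adjusted p = 4.29e-05), also in each of the 4 blocked fits without a line. *MYC*, a regulator of growth genes, was at 30.2, 28.9, 35.9 and 24.1 CPM with serum and at 26.0, 26.0, 35.9 and 23.3 without, and did not pass in either fit (-0.10 ± 0.15, edgeR's adjusted p = 0.671, and 0.230 with the block).

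Other genes of the same pathways, for salvage, breakdown, transport and further folate and polyamine steps, were taken from a list of 96, of which 84 were tested. Of these, 22 fell and 6 rose, beside 14.0% and 11.1% of all genes, and with the block 27 fell and 15 rose, beside 22.4% and 23.2%. Their median log2 fold change was -0.04. *HPRT1*, the purine salvage enzyme, fell from 56.8 ± 6.14 to 32.3 ± 4.16 CPM (-0.82, edgeR's adjusted p = 0.00171) and *AK4*, an adenylate kinase of mitochondria, by 0.77 (0.0120). In pyrimidine salvage and breakdown, *UCK2*, a uridine-cytidine kinase, fell by 0.47 (edgeR's adjusted p = 0.0144) and *NT5C3A*, a pyrimidine nucleotidase, by 0.49 (0.0333), the latter with overlapping ranges and called in only 3 of the 12 leave-out fits. *DCTPP1*, which clears modified nucleotides, fell by 0.72 (edgeR's adjusted p = 0.00266).

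*TK2*, the mitochondrial thymidine kinase, rose from 9.14, 8.13, 9.58 and 10.3 CPM to 16.3, 14.5, 14.5 and 18.6 (0.78 ± 0.12, edgeR's adjusted p = 0.00253), where its cytosolic counterpart *TK1* fell. *RRM2B*, the small reductase subunit of non-dividing cells, was at 74.1 ± 6.47 and 70.9 ± 5.70 CPM (-0.06, edgeR's adjusted p = 0.616), and its sign turned under upper-quartile scaling and GC correction. *GCSH*, of the glycine cleavage system, fell by 0.71 (edgeR's adjusted p = 0.00888) and *SFXN1*, a mitochondrial serine carrier, by 0.69 (0.000846).

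Among methionine and polyamine genes, *MTRR* fell by 0.45 (edgeR's adjusted p = 0.0107) and *SMS*, spermine synthase, by 0.64 (0.00419), while *SMOX*, spermine oxidase, rose by 0.49 (0.00998) and *AZIN2*, an antizyme inhibitor, by 0.97 (0.00953) from 4.59 ± 0.976 to 9.02 ± 2.31 CPM. The nucleoside transporters of the SLC29 family differed. *SLC29A1* fell from 64.7 ± 6.84 to 39.7 ± 6.40 CPM (-0.71, edgeR's adjusted p = 0.00428), whereas *SLC29A2* rose from 5.28 ± 0.706 to 8.97 ± 0.601 (0.77, edgeR's adjusted p = 0.00408) and *SLC29A3* from 2.55 ± 0.396 to 5.28 ± 1.51 (1.06, edgeR's adjusted p = 0.00953). *SLC25A33*, a mitochondrial pyrimidine nucleotide carrier, fell by 0.64 (edgeR's adjusted p = 0.00253).

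Genes of other growth processes were counted in the same fit for comparison. Of 21 replication licensing genes 19 fell (median log2 fold change -0.39), as did 14 of 17 mitotic genes (-0.37) and 17 of 19 ribosome biogenesis genes (-0.41). Of 22 listed ATF4 targets, 8 fell and 1 rose (-0.29), beside 14.0% lower and 11.1% higher of all genes tested. With the block 20, 17, 18 and 9 genes of these lists fell, in the same order, beside 22.4% of all genes. Also with the block, 2 ATF4 targets rose, beside 23.2% of all genes. With the block and a GC correction 14 ATF4 targets fell and 3 rose, beside 24.5% and 21.7% of all genes. The medians of the pathway groups lay between -0.33 and -0.49, so their size was near that of these growth lists. The part of cell-cycle changes in the fall of the 41 genes was not tested.

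**Figure D5:**
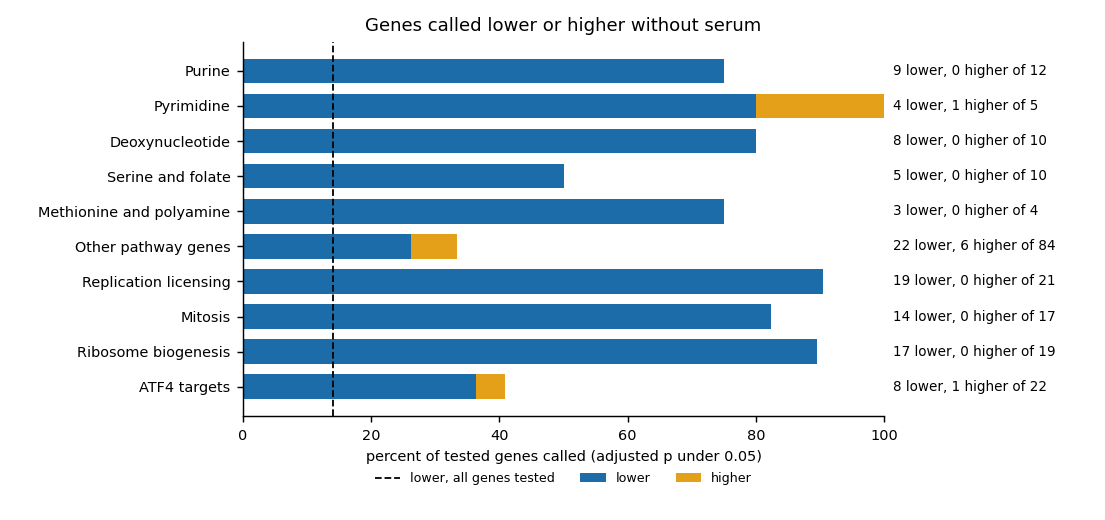
Percent of tested genes called lower or higher without serum in each group, with the counts at the right. The dashed line marks 14.0%, the share of all tested genes called lower, and every group lies above it.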

How the data were processed

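RNA from 4 A375 lines, each with and without serum, was sequenced as paired reads after removal of ribosomal RNA. The authors deposited unnormalized read counts per gene, 1 table per library. The submitters' processing notes name cutadapt, TopHat2 (2.0.11), HTSeq and the build GRCh38, as do the names of the deposited counts, whereas the methods of the study name build hg19 and Cufflinks; the strand setting and annotation release are not given in the sources used here. Rows that name no gene, here ambiguous and not uniquely placed reads, since the row for reads on no feature was at 0 in every table, held 16.1% to 31.0% of the recorded reads per library and were left out. Reads counted on genes came to 29759279 to 73341551 per library.

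Genes passing filterByExpr (17671 of 58051) were tested for serum-free against serum with edgeR's quasi-likelihood test (4.0.16, R 4.3.3), TMM scaling, robust fit and Benjamini-Hochberg adjustment over all of them, called at an adjusted p under 0.05, without a block, using all 8 libraries. The SE of a fitted change was back-calculated as the absolute log2 fold change over the square root of the test's F statistic. Groups were taken from the sample labels. Same-numbered libraries are the same clone, and their deviations from the group means correlated at 0.40 to 0.60, against at most 0.13 between lines. Each gene's deviations sum to 0 within a condition, so positive values within lines push those between lines down. The line number as a block was an alternative. Others were DESeq2 (1.42.0), limma voom (3.58.1), RLE and upper-quartile scaling, other filters, protein-coding genes only, a GC correction with and without the block, and leaving out each library or line. Leaving out a line with the block was added after the data were seen. Ratios of pairs (0.5 added to each count) were compared by exact permutation in scipy (1.17.1). Transcript length and GC content came from GENCODE on another build, with no coordinates taken from it. Positions and promoters came from RefSeq (GRCh38.p14), and gene positions are those of that annotation. The fits were also run on simulated counts, and the outcome is not given here.

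The members, gene lists and tests were chosen with earlier results of these data known. Named were all 41 members, in each group of other pathway genes up to 2 largest rises and 2 largest falls past the threshold, *RRM2B* and *HPRT1* whatever their values, and the regulators *MYC*, *ATF4* and *E2F1*. Some genes this rule names are not reported here.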

Additional observations from a re-analysis of the deposited data

Results flagged for a closer look

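In 4 of 96 groups of 4 libraries 1 library stood far from the others by Dixon's test at the 95% level, where chance alone gives about 4.8. *PRPS2* with serum was at 118 CPM in WT4, against 149 to 156 in the other lines. *CTPS1* without serum was at 133 CPM in WT4, against 157 to 158. *DTYMK* with serum was at 83.7 CPM in WT4, against 66.5 to 69.2. *AHCY* without serum was at 193 CPM in WT1, against 230 to 234.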

How the results depend on the processing

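With a replicate block that pairs the libraries of each line, genes called lower went from 2477 to 3961 and higher from 1957 to 4106, and with the block and a GC correction to 4326 and 3826. Over fits that left out a library or line, with or without the block, they ranged from 969 to 4459 and from 620 to 4479. Over the same left-out fits, members called lower ranged from 17 to 33 and higher from 0 to 3; the block alone gave 32 and 3, and GC correction with the block 35 and 1. Other pathway genes called lower ranged over those fits from 13 to 28 and higher from 3 to 16, with 27 and 15 under the block and 30 and 16 with GC correction added. Purine genes lower ranged over them from 4 to 11, pyrimidine from 1 to 4, deoxynucleotide from 5 to 9 (10 with the block and GC correction) and serine and folate from 3 to 6. The pyrimidine median of -0.33 moved to -0.27 under upper-quartile scaling, -0.44 with GC correction and -0.43 with the block added, and the serine and folate median ranged from -0.46 to -0.29 over the fits that left something out. Signs turned for *SHMT2* (0.0409 under upper-quartile scaling, -0.0775 to 0.0538 over left-out fits), *AHCY* (0.0569 under upper-quartile scaling, 0.0078 with at least 10 counts in every library, 0.0155 with protein-coding genes only, -0.0714 to 0.0618 over left-out fits), *RRM2B* (0.0005 under upper-quartile scaling, 0.16 with GC correction, 0.17 with the block added) and *MYC* (-0.25 to 0.0012 over left-out fits), none of them called without the block. The cause was not tested. No pair ratio can pass a two-sided sign-flip test over 4 lines, whose smallest p is 0.125.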
